A study of Rattus norvegicus with 12 samples.

Results

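The comparison described here is day 1 against day 0 in lungs treated with the antibiotic that the labels call NEO. It compares 6 of the 12 libraries of the series, 3 from NEO day 0 and 3 from NEO day 1. They were chosen by the arm, day and lung number in the sample titles. All libraries are RNA from T cells that recognise MBP, myelin basic protein, a component of the myelin sheath and a classical autoantigen in rats. The cells had been sorted by their fluorescent label from lung tissue of wild type LEW/Crl rats aged 6-8 weeks. Every lung of the NEO arm had received NEO into the trachea for 7 days, and MBP was then given by the same route. The control arm, with phosphate-buffered saline (PBS) in place of NEO, has 3 libraries on each day. Unless the NEO libraries are said to be fitted alone, the PBS libraries are in every fit. There they share in the gene filter, the scaling and the estimate of spread behind the NEO calls. Beyond that, PBS enters only where a difference from it is tested or its levels or changes are set beside those of NEO. No NEO library of day 1 was free of the immunization, so the effects of MBP, of the instillation and of the passing day cannot be told apart. The labels number the lungs and do not say whether a library came from 1 animal or from pooled animals, so a p-value speaks only for variation among the libraries sequenced.

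A T cell that meets its antigen again in a tissue receives a signal through its receptor and changes its RNA within hours. Genes for early response factors, cytokines and growth are among those known to be switched on, and genes that keep a resting cell quiescent and recirculating are among those known to be shut down. Which of these genes moved in NEO lungs is not reported here, because the files name genes only by Ensembl identifier and 0 of the 32623 identifiers could be found in the table of rat gene names at hand. The T cell label was therefore not checked against marker genes, and markers of other lung cells were not read. Genes are described below as groups defined by how they moved. In RNA from many cells, a lower level can mean fewer cells of a kind or less RNA per cell, and the data do not tell these apart.

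The NEO libraries held between 7776335 and 14952352 counts, the lowest in day 1 replicate 1. Genes with at least 10 CPM (counts scaled to a total of 1e+06 after TMM, a correction for composition) numbered 8081 to 8269 on day 0 and 8122 to 8503 on day 1. NEO day 0 replicate 1 stood apart. Its log2 CPM correlated at 0.934 and 0.925 with the other day 0 libraries, which correlated with each other at 0.986, and its 10 most abundant genes took 6.37% of the counts against 8.17% and 8.07%. The counts of genes called and the shares of RNA are therefore given with and without that library. On day 1, replicate 3 correlated at 0.947 and 0.937 with replicates 1 and 2, which correlated with each other at 0.979.

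What changed in these T cells by the day after immunization was asked gene by gene. With all libraries, 911 genes rose (7.32% of the 12449 tested) and 913 fell (7.33%), 1824 in all or 14.7% (edgeR quasi-likelihood test, Benjamini-Hochberg adjusted p under 0.05). Rises were larger than falls, as 524 genes rose at least 2-fold and 154 fell at least 2-fold. At 4-fold the numbers were 246 and 9. Without NEO day 0 replicate 1, 1006 genes rose and 1201 fell, 17.3% of the 12745 genes then tested. Of the genes called with all libraries, 742 of the 911 that rose and 739 of the 913 that fell were called again without it, and 0 called genes changed sign. The CPM of the 2 groups did not overlap for 1536 genes that were higher on day 1 and 1874 that were lower, together 27.4% of the genes tested.

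**Figure D1:**
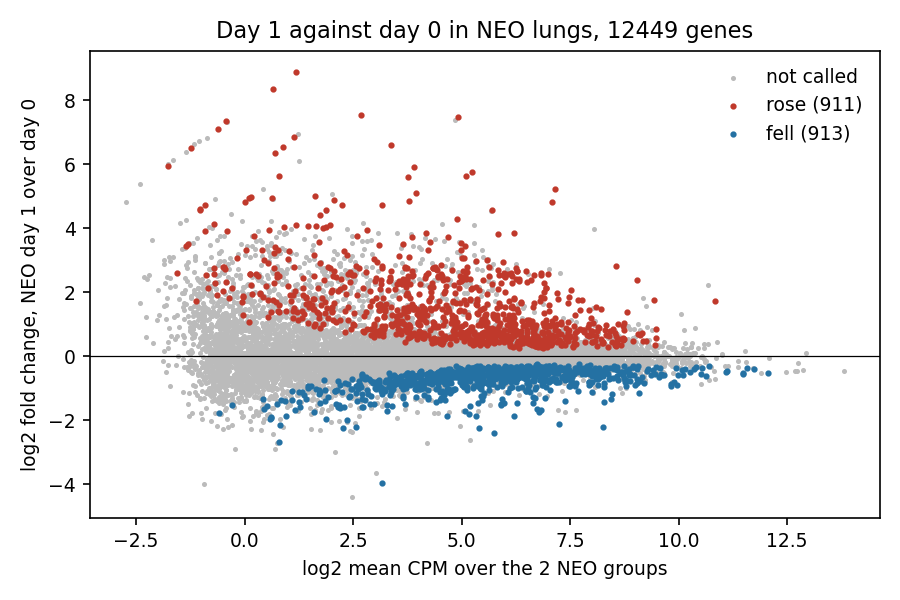
Each point is 1 of 12449 genes, with its mean level in NEO lungs (log2 CPM) on the horizontal axis and the log2 fold change of day 1 over day 0 on the vertical axis. The 911 genes that rose reach further from 0 than the 913 that fell, mainly at low and middle levels.

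The rises were found at all levels of expression, whereas falls were few among the genes at the lowest levels and more frequent with rising level. In 4 bins of equal size by mean CPM in NEO, 163, 249, 258 and 241 genes rose from the lowest bin to the highest, and 54, 223, 283 and 353 fell. The median log2 rise among the genes called was 2.20 in the lowest bin (median level 1.51 CPM) and 0.70 in the highest (median level 145 CPM). For falls the corresponding medians were -1.37 and -0.52. Low genes need larger changes to be called, and how far that sets this order was not tested. Counts near 0 also leave little room for a fall to be seen in the lowest bin. Without NEO day 0 replicate 1 the bins held 174, 291, 293 and 246 genes that rose and 78, 288, 360 and 474 that fell.

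As a share of the RNA, the 911 genes that rose took 4.50%, 4.08% and 4.25% of all counts in NEO day 0 replicates 1, 2 and 3, and 8.42%, 7.83% and 8.99% in the day 1 replicates. The 913 that fell took 16.3%, 14.8% and 13.7% on day 0 and 10.1%, 10.9% and 9.65% on day 1. Neither share overlapped between the days, which is a description because the genes were chosen on these libraries. The genes called without NEO day 0 replicate 1 weighed more among the falls. The 1201 that fell took 25.3% and 24.5% in day 0 replicates 2 and 3 and 16.9%, 18.3% and 16.7% on day 1, with 21.7% in the library left out. The 1006 that rose took 4.02% and 4.13%, then 8.71%, 7.98% and 9.30%, with 5.10% in the library left out.

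The rise was spread over many genes. In CPM, 103 genes made up 50% of the summed rise with all libraries and 102 without NEO day 0 replicate 1, and the 10 largest gains held 14.7% and 17.8% of it. The spread of the fall depended on that library, as 71 genes made up 50% of it with all libraries and 36 without, and the 10 largest losses held 17.4% and 32.5%.

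Genes close to a switch from off to on were few. Over all identifiers listed, 1 had at most 3 counts in every NEO library of day 0 and at least 20 in every one of day 1, and 0 went the other way. With NEO day 0 replicate 1 left out, 8 identifiers met the first condition and 0 the second. In replicate 1 itself, 7 of these 8 were above 3 counts, which follows from the rule, as 1 of the 8 passed with all libraries. The median over the 8 was 9 counts in that library, against a median of 60.5 on day 1.

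Each library was then placed on the axis from day 0 to day 1 with genes that it had no part in choosing. For each NEO library, genes were called in a fit without it, and its log2 CPM was expressed as a position between the mean of the other day 0 libraries (position 0) and that of the other day 1 libraries (position 1). The day 1 libraries had median positions of 0.92, 0.75 and 0.86 for genes that rose, and 1.01, 0.67 and 0.95 for genes that fell. The day 0 libraries had medians of 0.26, 0.02 and 0.27 for genes that rose and 0.34, 0.13 and 0.45 for genes that fell. Every day 1 median was thus above every day 0 median, in both directions.

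These held-out positions differed among the day 0 libraries. Replicate 2 lay nearest to position 0, with 8.38% of the genes that rose past the midpoint between the days. Replicates 1 and 3 had 35.5% and 29.3% of such genes past it. The median of replicate 1 was therefore close to that of replicate 3, but its genes were spread more widely, from -0.25 to 0.68 between the quartiles for genes that rose, where replicate 3 ran from -0.05 to 0.56. On day 1, replicate 3 had the widest quartiles for genes that rose, 0.17 to 1.27, against 0.80 to 1.04 in replicate 1. Only 61.0% of the genes that rose were past the midpoint in day 1 replicate 3, against 96.1% and 75.5% in replicates 1 and 2. The gene sets differ between the 6 fits, and part of each shift toward the midpoint comes from choosing genes on the other libraries.

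**Figure D2:**
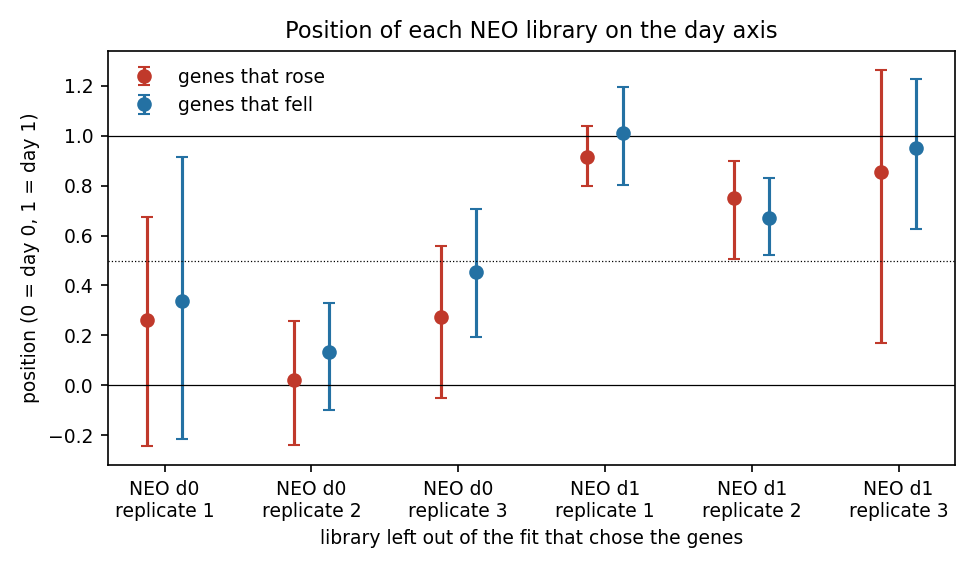
Points are the median position of each NEO library between the day 0 mean (0) and the day 1 mean (1) over the genes called without it, and bars run from the first to the third quartile. The day 1 medians, 0.67 to 1.01, lie above the day 0 medians, 0.02 to 0.45, and day 0 replicate 1 and day 1 replicate 3 have wide bars for the genes that rose.

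More genes set NEO day 0 replicate 1 apart than either other day 0 library. Among 8397 genes whose mean in NEO reached 10 CPM, 373 were at least 2-fold higher in replicate 1 than in both other day 0 libraries, whereas the same rule gave 2 genes for replicate 2 and 37 for replicate 3. Of the 373, 76.9% had a higher mean on day 1 than in day 0 replicates 2 and 3, where 44.8% of the 8397 did. Of the 37 of replicate 3, 91.9% had a higher mean on day 1 than in the other day 0 libraries. Over the 8397 genes that share was 48.3%. Such a lean toward day 1 was thus seen in replicate 3 as well, over fewer genes. Replicate 1 was also at least 2-fold lower for 421 genes, of which 56.5% were lower on day 1, close to the 55.2% of the 8397. Choosing genes by their distance from 2 libraries favours a difference from those libraries on day 1 as well, by an amount that was not tested.

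The number of steep rises moved with several libraries. At least 8-fold rises were called for 83 genes with all libraries and for 170 without NEO day 0 replicate 1, with 47 genes in both sets, which is 56.6% of the first set and 27.6% of the second. At 4-fold the sets held 246 and 287 genes and shared 191, and at 2-fold 524 and 555 and shared 410. Dropping NEO day 0 replicate 2 left 28 genes at 8-fold and 119 at 4-fold. Dropping day 1 replicate 1, 2 or 3 of NEO gave 32, 49 or 218 genes at 8-fold and 145, 183 or 417 at 4-fold.

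Rises of at least 4-fold called without NEO day 0 replicate 1 formed 2 sets by the level of the gene in NEO day 1 replicate 3, a division made after the values were seen and given without a test. Of 285 such genes that were also in the main fit, 205 (71.9%) were within 2-fold of the mean of the other day 1 libraries in replicate 3, and 76 (26.7%) were at least 2-fold lower. The other 4 were at least 2-fold higher. Among all genes tested, 10.8% were at least 2-fold lower in that library.

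The set of 205 was high in every day 1 library and partly raised in NEO day 0 replicate 1. Its genes together took 0.482%, 0.125% and 0.133% of the counts in NEO day 0 replicates 1, 2 and 3, and 1.13%, 1.03% and 1.36% in the day 1 replicates. In PBS, whose levels had no part in choosing these genes beyond a shared filter and estimate of spread, they took 0.138% to 0.140% on day 0 and 1.23% to 1.41% on day 1. NEO day 0 replicate 1 therefore lay above the other 5 day 0 libraries and below all 6 day 1 libraries. In it, 133 of the 205 were at least 2-fold higher than the mean of the other NEO day 0 libraries. Among all genes tested 9.89% were. The steep rises were chosen for lying above NEO day 0 replicates 2 and 3, which favours a higher level in the library left out. By how much was not tested. In NEO, a high level in every day 1 library also follows from how the set was chosen. With all libraries in the fit 169 of the 205 were still called.

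The set of 76 was much lower in the day 1 library numbered 3 than in the other day 1 libraries, in both arms. It took 0.0468%, 0.0170% and 0.0210% of the counts in NEO day 0 replicates 1 to 3, and 0.391%, 0.331% and 0.0539% on day 1. In PBS it took 0.0292% to 0.0424% on day 0 and 0.295%, 0.478% and 0.0564% in day 1 replicates 1, 2 and 3. The libraries numbered 3 thus stood above each day 0 library of their arm but closer to them than to the other day 1 libraries. In NEO this follows from how the set was chosen, and in PBS it does not. In PBS day 1 replicate 3, 62 of the 76 genes were at least 2-fold lower than the mean of replicates 1 and 2, against 4 of the 205 and 7.02% of all genes tested. Whether cell composition, sorting or a shared batch moves with the number 3 was not tested, as the labels give none of these. For the median gene of the 76, NEO day 0 replicate 1 was 0.97 above the other day 0 libraries on the log2 scale, and for the median gene of the 205 it was 1.62.

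**Figure D3:**
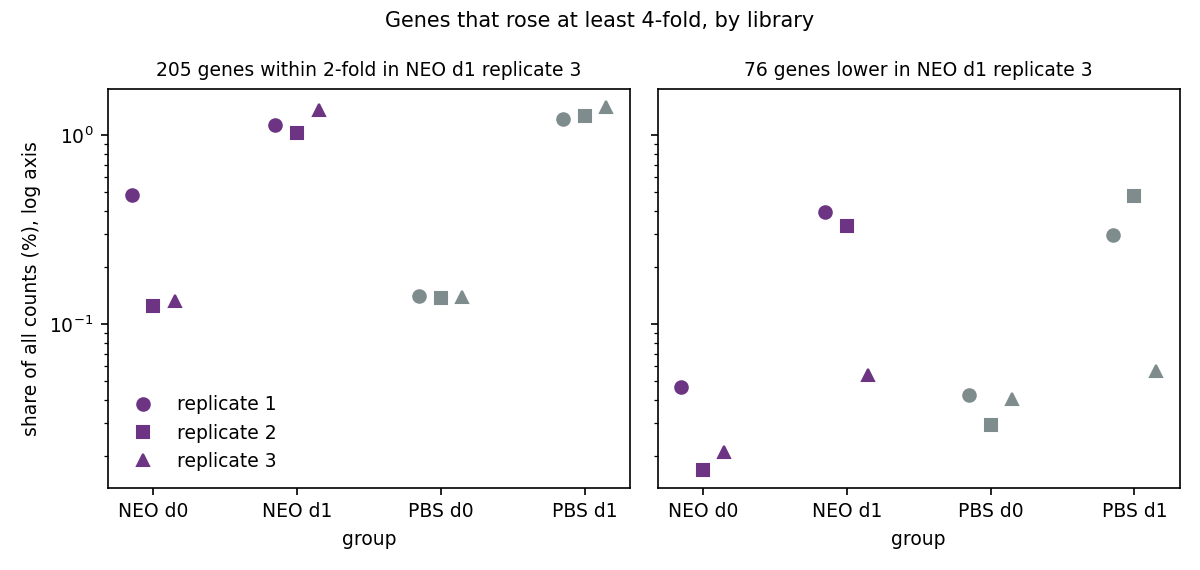
Points show the summed share of all counts (percent, log axis) taken in each library by genes with a called rise of 4-fold or more in NEO without day 0 replicate 1, for the 205 genes within 2-fold in NEO day 1 replicate 3 (left) and the 76 that were lower in it (right). On the left NEO day 0 replicate 1 lies at 0.482% between the days, and on the right the day 1 libraries numbered 3 lie at 0.0539% and 0.0564%, well below the other day 1 libraries.

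As examples 4 identifiers are given, 2 that led the rises and 2 that led the falls by size of change among called genes with a mean of at least 50 counts on the higher day, no overlap between the days and a call in the same direction without NEO day 0 replicate 1. This held for 673 genes that rose and 717 that fell. ENSRNOG00000062228 had 0, 1 and 1 counts in NEO day 0 replicates 1, 2 and 3 and 215, 142 and 20 counts in the day 1 replicates. The pooled ratio of day 1 over day 0 was 179, with a 95% exact interval of 49.2 to 1484 that covers counting error only. On the CPM scale the day 1 values were 27.3, 9.17 and 1.61, lowest in replicate 3 and all above the day 0 values. Its edgeR adjusted p was 0.00868 with all libraries and 0.0204 without NEO day 0 replicate 1. The call was lost under 3 of 15 other settings, at an adjusted p of 0.0617 with only the NEO libraries in the fit, of 0.0640 in that fit without NEO day 0 replicate 1 and of 0.176 with limma voom.

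ENSRNOG00000009919 was at 0.099, 0.224 and 0.667 CPM in NEO day 0 replicates 1, 2 and 3 and at 80.8, 90.1 and 8.60 CPM in the day 1 replicates. Its highest day 0 value was well under its lowest day 1 value, which again was that of replicate 3. The log2 fold change was 7.48 ± 1.37 (SE, edgeR adjusted p = 0.00637). Leaving out NEO day 0 replicate 1 gave 7.11 (adjusted p = 0.0158). Of 15 alternatives 14 called it, the exception being limma voom with quality weights (adjusted p = 0.201).

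ENSRNOG00000009884 stood at 218 CPM in NEO day 0 replicate 1 and at 24.7 and 30.0 CPM in replicates 2 and 3, against 19.3, 19.1 and 13.3 CPM on day 1. Its rank among the falls rests on 1 library. The log2 fold change was -2.40 ± 0.69 (SE, edgeR adjusted p = 0.0401) with all libraries and -0.68 without NEO day 0 replicate 1 (adjusted p = 0.0468). The call was lost in 8 of 14 alternatives, among them the fits without NEO day 1 replicate 1, 2 or 3 (adjusted p = 0.107, 0.0851 and 0.102), limma voom (log2 fold change -0.63, adjusted p = 0.207) and the NEO libraries alone (adjusted p = 0.195). DESeq2 is not among the 14. It was run on the same 12449 genes, this one included, but no adjusted p from it is available for this gene. The reason was not examined.

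ENSRNOG00000004703 fell in a like manner in all libraries. It was at 9.69, 5.67 and 8.67 CPM in the NEO day 0 replicates and at 1.65, 1.55 and 1.85 CPM in the day 1 replicates, with no overlap. The log2 fold change was -2.24 ± 0.38 (SE, edgeR adjusted p = 0.00421) and became -2.10 (adjusted p = 0.00520) once NEO day 0 replicate 1 was dropped. It was called in all 15 alternatives, with adjusted p from 5.3e-06 to 0.0362. In PBS its log2 change was -0.70 (edgeR adjusted p = 0.175), but the difference between the arms did not pass (edgeR adjusted p = 0.863, unadjusted p = 0.0119).

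**Figure D4:**
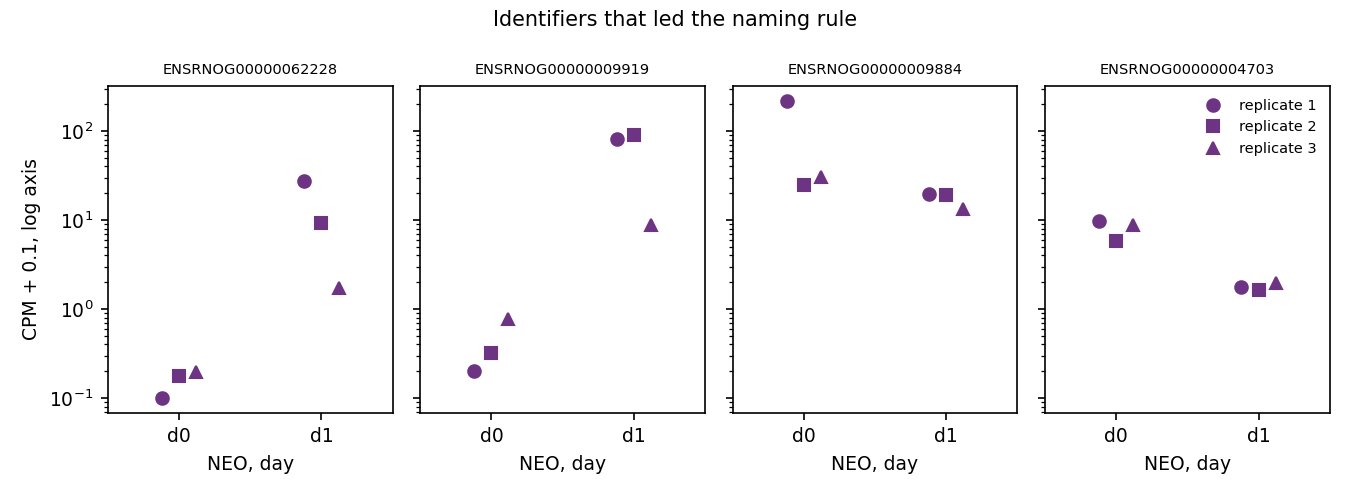
CPM plus 0.1 (log axis) of the 4 example identifiers in each NEO library, by day and replicate number. The first pair rose and was lowest on day 1 in replicate 3, the third owes its height on day 0 to replicate 1 at 218 CPM, and the fourth is separated evenly between the days.

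The 12 leading rises and 8 leading falls by the same rule are described next. The 12 leading genes that rose had log2 fold changes of 4.83 to 7.53, and 11 of them were lowest on day 1 in replicate 3. Most of the 12 belong to the set above that was lower in NEO day 1 replicate 3. On day 0, 11 of the 12 were lowest in replicate 1. The ranking used the fit with that library, so a low value in it favours a high rank among the rises. In the PBS day comparison, where 25.7% of the genes tested were called in either direction, 11 of the 12 were called as rises, with log2 changes of 2.32 to 8.39 over the 12. The 8 leading genes that fell had log2 fold changes of -2.40 to -1.96, and 6 of them were highest on day 0 in replicate 1. A high value in that library likewise favours a high rank among the falls. How often all genes tested were lowest or highest in these libraries was not counted, so these counts describe the leaders only. Of the 8 that fell, 5 were called in PBS.

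Whether the day effect in NEO lungs differed from that in PBS lungs was tested gene by gene as the difference of the day effects. The edgeR test called 0 of 12449 genes, and 608 had an unadjusted p under 0.05. If no gene differed, a share of 0.05 of the genes tested would be expected under that cutoff, and 608 is below it. The lowest adjusted p was 0.863. Without NEO day 0 replicate 1 it also called 0, and 750 genes had an unadjusted p under 0.05. DESeq2 and limma voom called 0 as well, with 685 and 1413 such genes. Leaving out NEO day 1 replicate 3 raised the number of such genes to 1535 (smallest adjusted p 0.314) and leaving out both it and NEO day 0 replicate 1 to 2268 (smallest adjusted p 0.166). The number was 367 and 386 when day 1 replicate 2 or 1 of NEO was dropped, and 1036 when day 0 replicate 2 was. These fits tested 12449 to 12825 genes. The numbers 367 and 386 are also below a share of 0.05 of the genes tested, and the others after 608 are above it. The fits without NEO day 1 replicate 3 kept PBS day 1 replicate 3, which shared its low levels in a set of steep rises. That set took 0.0539% of the counts in NEO day 1 replicate 3 and 0.0564% in PBS day 1 replicate 3. In PBS day 1 replicates 1 and 2 it took 0.295% and 0.478%. Those fits thus kept a library low in this set in PBS only. Whether this contributed to 1535 and 2268 was not tested. A result of 0 does not show that the arms responded alike.

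The number of genes called in NEO depended on single libraries and on the source of the spread. It ran from 854 without NEO day 1 replicate 1 to 2207 without NEO day 0 replicate 1, and it was 974 without NEO day 0 replicate 2. When the 6 NEO libraries were fitted alone, 106 genes rose and 19 fell. In the same small fit without NEO day 0 replicate 1, an alternative chosen after seeing the data, 400 rose and 159 fell. A core of 401 genes that rose (44.0% of 911) and 286 that fell (31.3% of 913) was called with all libraries and in each of the 6 fits that left out 1 NEO library, and their median log2 fold changes with all libraries were 1.40 and -0.71.

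**Figure D5:**
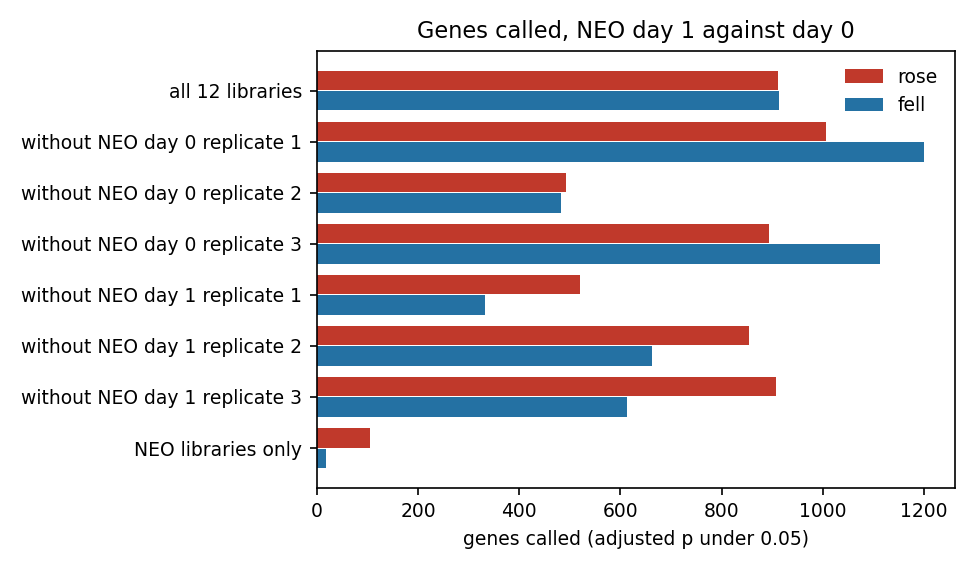
Bars give the number of genes called as rising or falling on day 1 in NEO (adjusted p under 0.05) with all 12 libraries, with each NEO library left out in turn, and with the 6 NEO libraries fitted alone. The numbers are highest without day 0 replicate 1 (1006 and 1201) and lowest for the NEO libraries alone (106 and 19).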

How the data were processed

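RNA sequencing counts of 12 libraries in 4 groups of 3 were read, and groups and lung numbers were taken from the sample titles. The authors deposited raw counts of reads per Ensembl gene identifier. The submitters' processing notes name the build rn6, featureCounts 1.5.0-p1, STAR 2.5.2a and bcl2fastq 2.17.1.14. The sources used here do not give the annotation release, the strand setting or the handling of reads that match several genes, so near-identical, overlapping or antisense genes may share reads.

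Genes were filtered (filterByExpr), scaled by TMM and fitted with edgeR 4.0.16 in R 4.3.3 (glmQLFit, glmQLFTest), with 1 mean per group over all 12 libraries. A gene was called where its p, adjusted by Benjamini-Hochberg, was under 0.05. Standard errors are the log2 fold change over the square root of F, and positions use log2 CPM with a prior count of 2. The limit set by a count of 0 (3 counts) was 0.194 to 0.380 CPM in NEO, after TMM. No pair of NEO libraries agreed within sampling noise (smallest chi-square per degree of freedom 14.1).

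Members, lists and tests were chosen with earlier results of these data known. The 34 gene lists and the parts of the naming rule that need symbols could not be applied, because no identifier matched. The rest of the rule was used on identifiers. Alternatives were DESeq2 size factors, limma 3.58.1 (voom, quality weights), DESeq2 1.42.0, no filter, at least 50 counts in 3 libraries, the replicate number as a block, NEO libraries alone and each NEO library left out. Counts were also simulated over 12449 genes, with 4-fold changes planted in 100 genes and 2-fold changes in 100. All of these genes had a mean of at least 50 counts, all other means were equal between groups, and no library was set apart. In that setting 91.0% of 4-fold and 55.0% of 2-fold changes were recovered, and 3.95% of calls were false. These rates do not carry over to genes with low counts or to the libraries that stood apart here.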

Additional observations from a re-analysis of the deposited data

How the results depend on the processing

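The count of 1824 genes called in NEO became 2739 by quality-weighted limma voom (1239 up, 1500 down) and 125 with the NEO libraries alone. Leaving out single NEO libraries gave 854 to 2207. With settings chosen after seeing the data included, fits without libraries ran from 559 (NEO libraries alone, without NEO day 0 replicate 1) to 2597 (without NEO day 0 replicate 1 and NEO day 1 replicate 3). DESeq2 called 2526, DESeq2 size factors in edgeR 1733, no low-count filter 1447 and the stricter filter 1873. In all these fits 0 of the 1824 genes, where tested, changed sign. The cause of the low count with the NEO libraries alone was not tested. That fit has fewer libraries, and its median SE was 0.229 against 0.198. The test of the difference between the arms called 0 genes in all 14 fits.

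With the replicate number as a block 1868 genes were called (951 up, 917 down). Deviations of same-numbered NEO libraries of the 2 days correlated at 0.071, -0.089 and 0.023 across genes, so the numbers were not taken as pairs. The block ended the call of ENSRNOG00000009884 (adjusted p = 0.0649) and of no other printed gene. Counts of the gene lists without NEO day 0 replicate 1 were not run, for want of symbols. Depth limits the low genes, as the shallowest library held 7776335 counts.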
